A study of Rattus norvegicus with 12 samples.

Results

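The lungs of monocrotaline (MCT) rats infused with TRV023 were compared with those of MCT rats infused with vehicle. The comparison covered all genes of the deposited table, in 6 of the 12 RNA sequencing libraries of the study. The members were chosen by label alone: the 3 libraries Trv_917, Trv_918 and Trv_930, each from a rat that received TRV023, and the 3 libraries Veh_923, Veh_924 and Veh_963 of rats that received phosphate-buffered saline (PBS). The other 6 libraries came from MCT rats given AngII or losartan. All 6 rats were 9 weeks old by their labels and carried the same lung injury, and the methods describe male Sprague-Dawley rats given a single injection of MCT at 60 mg/kg. TRV023 was delivered at 10 µg/kg/min by osmotic minipump. For histology and hemodynamics the infusion started 1 week after MCT and ran for 2 weeks, and no separate schedule is given for the sequenced lungs. No rat without MCT is in the comparison, so vehicle stands for injured lung and not for healthy lung. Sprague-Dawley rats are an outbred stock, so the 6 animals are not genetically identical.

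TRV023 is a ligand of the angiotensin II type 1 receptor (AT1R), a G protein-coupled receptor of vascular smooth muscle. AngII makes this receptor signal through Gq, which constricts the vessel, and through β-arrestins, adapter proteins that desensitize and internalize the receptor and also start signaling of their own. TRV023 is a β-arrestin-biased agonist: it blocks the G protein arm and engages the β-arrestin arm. MCT is a plant alkaloid that the liver turns into a toxin of lung endothelium, after which small pulmonary arteries thicken and cells of the vessel wall and the infiltrate divide. The comparison asks what the biased agonist did to gene expression in such a lung.

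Each library held 16106337 to 20096877 counted reads, of which the mitochondrial genome took 5.65% to 7.55% in vehicle and 4.36% to 7.07% with TRV023. The lung label was borne out by its markers in every library. Surfactant protein B (Sftpb) was at 2931, 1467 and 2092 FPKM in the vehicle rats and 2381, 2306 and 2278 FPKM in the TRV023 rats, the club cell secretoglobin Scgb1a1 was at 14965, 12498 and 29879 against 17222, 27597 and 30478 FPKM, and Ager of alveolar type 1 cells was at 1296, 1162 and 1407 against 2068, 2057 and 1303 FPKM. Here and below, 3 values are given in the order Veh_923, Veh_924 and Veh_963 for vehicle and Trv_917, Trv_918 and Trv_930 for TRV023, and FPKM is a read count scaled to the length of the gene and the size of the library. These 3 markers overlapped between the groups. Veh_963 stood apart in muscle and lymphoid genes: Actc1, of cardiac muscle, was at 19.9, 31.1 and 283 FPKM in the vehicle rats and 22.3, 10.7 and 6.69 FPKM in the TRV023 rats, and the mean level of the smooth muscle list in Veh_963 was 1.02 above the mean of the 6 libraries on the log2 scale, against -0.54 to 0.17 in the others. The level of the B and plasma cell list was 0.73 in Veh_963 and -0.90 to 0.33 in the others. The first principal component, with 28.8% of the variance, put Veh_963 and Trv_918 at one end and Veh_924 and Trv_917 at the other, and the second, with 22.4%, put the 3 vehicle libraries on one side and the 3 TRV023 libraries on the other.

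Few single genes separated the groups beyond the spread between rats. The deposited table held 18569 genes, of which 567 had no read in any vehicle rat and 0 had no read in any TRV023 rat. Genes read only in vehicle are thus missing from it, and the lower and higher counts are not fully symmetric. In edgeR's quasi-likelihood test, 1 of 15193 genes passed a Benjamini-Hochberg adjusted p under 0.05, which is 0.00658% of the genes tested, and this gene was lower. At an unadjusted p under 0.05 the same test had 449 genes lower, or 2.96% of those tested, and 396 genes higher, or 2.61%. DESeq2, a second count test used as an alternative, called 68 genes lower and 42 higher at an adjusted p under 0.05. These are 0.415% and 0.256% of the 16379 genes it tested. In data simulated from these libraries, a larger share of its calls was false than this threshold of 0.05 allows. Of the 68 lower genes, 67 had all 3 TRV023 libraries below all 3 vehicle libraries, and 38 of the 42 higher genes had them above. The calls and this separation come from the same counts, so the separation of called genes adds no support to them. After TMM scaling, such separated groups were seen in 845 of all tested genes in the lower direction, 5.56%, and in 712 in the higher direction, 4.69%. The median log2 fold change over all tested genes was -0.0016. These shares are the background for the gene lists that follow, in which nominal p stands for an unadjusted edgeR p under 0.05 and separated means that no rat of one group lay within the range of the other.

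The called gene was RT1-CE16, a class I gene of the rat major histocompatibility complex, at chr20:5857674-5878729 on the minus strand in the coordinates of the deposited table. RT1-CE16 was at 108, 100.2 and 229.5 FPKM in the vehicle rats and 2.54, 3.21 and 3.09 FPKM in the TRV023 rats. The groups did not overlap, and Veh_963 was the highest rat. On the log2 scale RT1-CE16 fell by 5.63, with a standard error (SE) of 0.38 and an edgeR adjusted p of 0.00573. The call was lost with limma-voom (adjusted p = 0.166), in a joint edgeR fit of all 12 libraries (0.783), and in edgeR without Trv_917 (0.0703) or Trv_918 (0.112). Other genes of the complex, whose products present peptides to T cells, went both ways. Of 28 RT1 genes tested, 5 were lower and 4 higher at nominal p, and the median was 0.08. Leaving out each rat in turn gave 2 to 5 lower, fewest without Trv_918, and 1 to 6 higher, fewest without Veh_963 or Trv_930. RT1-Ba, a class II chain, was at 339, 309 and 405 FPKM in the vehicle rats and 134, 157 and 251 FPKM in the TRV023 rats, with a log2 difference of -0.96 (SE 0.24) and a DESeq2 adjusted p of 0.0147. RT1-CE7, another class I gene, lay higher with 93.8, 69.3 and 55.9 FPKM in the vehicle rats and 126, 109.5 and 104 FPKM in the TRV023 rats, and both of these genes were separated between groups. RT1-DMb was at 59 FPKM in Veh_924 and at 0.825 to 1.35 FPKM in the other 5 rats, so RT1 genes also differed from rat to rat within a group.

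**Figure D1:**
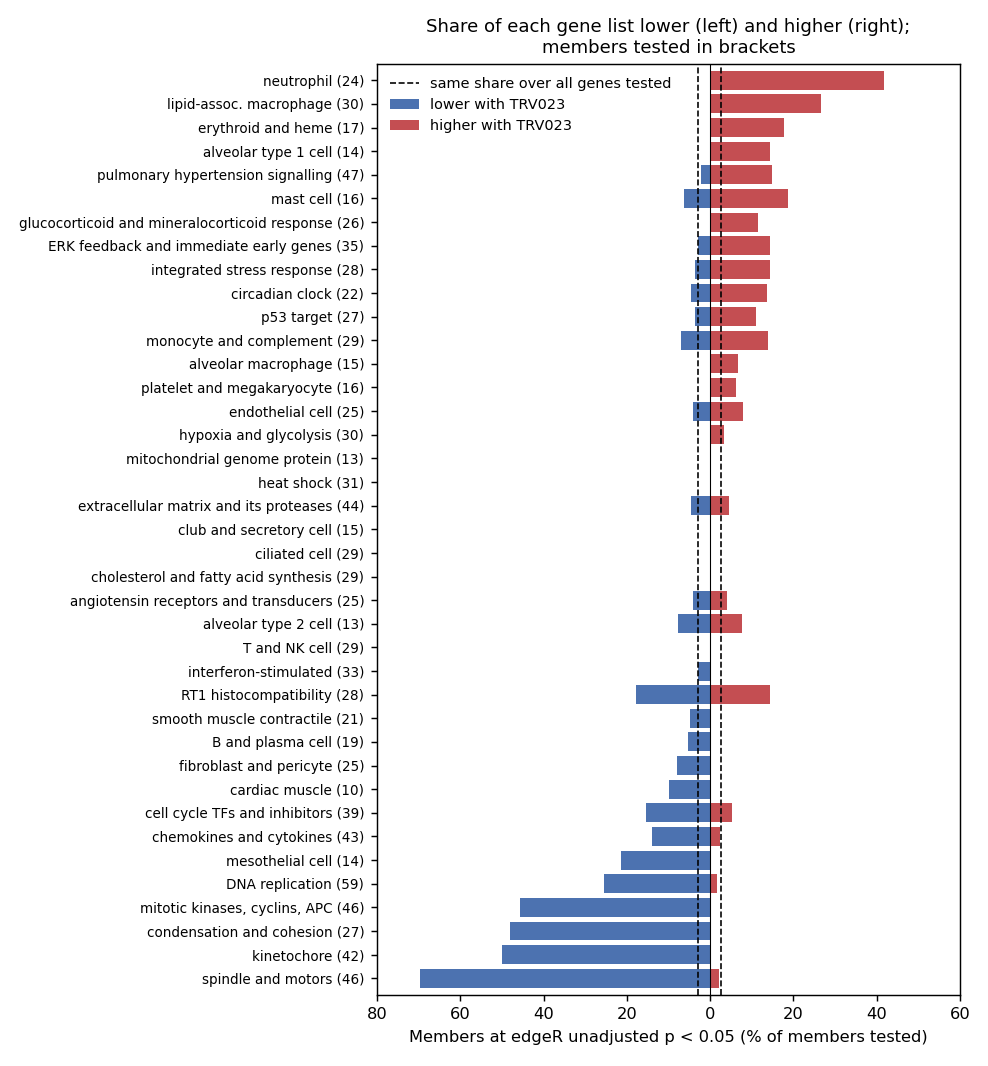
Share of the tested members of 39 gene lists that were lower (left, blue) or higher (right, red) with TRV023 at an unadjusted edgeR p under 0.05, in percent, with the number of tested members in brackets. The dashed lines are the shares over all genes tested, 2.96% lower and 2.61% higher. The lists of the mitotic machinery lie at the bottom, up to 69.6% lower for spindle and motors, and the neutrophil list lies at the top with 41.7% higher.

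Genes of mitosis were lower as a group in TRV023-treated lungs. When a cell divides, cyclin B with the kinase Cdk1 drives it into mitosis, condensin compacts the chromosomes, kinetochores tie them to spindle microtubules, the spindle checkpoint waits for the last attachment, and the anaphase-promoting complex with Cdc20 then releases the sister chromatids. Many of these genes are transcribed only around mitosis, so their messenger RNA is used as a measure of how many cells divide. In a piece of mixed lung tissue, fewer dividing cells and less RNA per dividing cell cannot be told apart. The 4 lists of this machinery held 161 tested genes in all. Their median log2 fold change was -0.74, 143 were fitted lower, and 87 (54.0%) were lower and 1 higher at nominal p, where all genes gave 2.96% and 2.61%. DESeq2 called 31 lower and 1 higher, and the groups were separated in 90 genes downward and 2 upward. None of the 161 passed the edgeR adjusted threshold. The plot of list shares shows these lists below all others.

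Mki67, the proliferation marker stained as Ki-67, was at 6.94, 8.37 and 4.56 FPKM in the vehicle rats and 3.91, 4.97 and 3.1 FPKM in the TRV023 rats. Veh_963 lay below Trv_918, so the groups overlapped. The log2 difference was -0.73 (SE 0.24), with an edgeR adjusted p of 0.721 and an unadjusted p of 0.0156. The paper reports more Ki-67-positive cells in vessel walls with TRV023 than with PBS. That was a count of stained cells in vessel walls, whereas these values are RNA of mixed lung tissue, so the measures are unlike. The paper also states, from its RNA sequencing, that proliferation transcripts were higher in the TRV023 group. The 4 mitotic lists here had a median of -0.74, with 87 of 161 genes lower and 1 higher at nominal p. Which transcripts the paper meant was not examined here. For cultured smooth muscle cells of patients, the paper reports more proliferation with TRV023.

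Spindle proteins and motors, which build and split the spindle, were the list with the largest share. Of 46 tested members 32 were lower (69.6%) and 1 higher at nominal p, with a median of -0.92. Prc1, which bundles the antiparallel microtubules of the midzone, was at 17, 16.5 and 16.1 FPKM in the vehicle rats and 6.72, 7.24 and 8.37 FPKM in the TRV023 rats. The rats of each group were close together, and the highest TRV023 rat lay far below the lowest vehicle rat. Its log2 difference was -1.16 (SE 0.13), with an edgeR adjusted p of 0.115 and a DESeq2 adjusted p of 2.87e-08. Tpx2, which activates the kinase Aurora A on spindle microtubules, was at 7.64, 7.53 and 5.75 FPKM in the vehicle rats and 2.7, 3.03 and 3.28 FPKM in the TRV023 rats, a difference of -1.21 (SE 0.19). Anln, the actin-binding anillin of the cleavage furrow, was at 2.59, 2.37 and 1.9 FPKM in the vehicle rats and 0.563, 0.783 and 0.548 FPKM in the TRV023 rats, a difference of -1.86 (SE 0.30). Both genes were separated between groups, with DESeq2 adjusted p values of 5.96e-05 and 5.93e-05. Among the motors, Kif11, which pushes the spindle poles apart, differed by -1.39 (SE 0.28), Kif23, which works in the central spindle, by -0.96 (SE 0.18), and Kif20b, a kinesin of cytokinesis, by -1.53 (SE 0.27). DESeq2 called all 3 motors. Of the 14 kinesin genes tested on the mitotic lists, 10 were lower at nominal p, with a median of -0.94. They were drawn from these lists only, not from all kinesins, and grouped after the values were seen. Nusap1, which binds spindle microtubules near chromosomes, differed by -1.41 (SE 0.26), with a DESeq2 adjusted p of 0.00051. The 1 higher member was a second gene model of Haus1, described with the gene models below.

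Kinetochore and centromere genes had 21 of 42 members lower and none higher at nominal p, with a median of -0.76. The count was 13 without Veh_924 or Trv_918 and 14 without Veh_923. Ndc80, which grips the microtubule end, was at 5.56, 4.14 and 3.46 FPKM in the vehicle rats and 1.23, 1.55 and 1.69 FPKM in the TRV023 rats. The 3 TRV023 rats lay closely together and below all vehicle rats, with a difference of -1.56 (SE 0.29) and a DESeq2 adjusted p of 0.000861. All 4 genes of its complex, a grouping made after the values were seen, were lower at nominal p, with a median of -1.22. For Nuf2 the difference was -1.14 (SE 0.31) and for Spc25 -1.31 (SE 0.34), and DESeq2 called neither, at 0.0723 and 0.0508. Bub1, a kinase of the spindle checkpoint, was at 4.3, 4.12 and 3.12 FPKM in the vehicle rats and 1.73, 1.61 and 2.07 FPKM in the TRV023 rats, a difference of -1.09 (SE 0.21). Its partner Bub1b was at 4.43, 2.99 and 2.11 against 0.59, 1.21 and 1.4 FPKM, a difference of -1.57 (SE 0.40). Cenpe, the kinesin of the kinetochore, differed by -1.10 (SE 0.25), Cenpf by -0.86 (SE 0.18) and Kntc1, which recruits the checkpoint proteins, by -1.12 (SE 0.27). DESeq2 called Ndc80, Bub1, Bub1b, Cenpe, Cenpf and Kntc1, 6 of the 42.

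Mitotic kinases, cyclins and the anaphase-promoting complex were split by role. Of 46 members 21 were lower and none higher at nominal p, with a median of -0.46. Cdk1, the kinase of mitotic entry, was at 23.4, 21.9 and 18.4 FPKM in the vehicle rats and 8.78, 6.53 and 12.3 FPKM in the TRV023 rats, a difference of -1.20 (SE 0.25). Its cyclins differed by -1.14 (SE 0.24) for Ccnb1 and -1.37 (SE 0.26) for Ccna2, and in all 3 genes the groups were separated. Cdc20, the activator of the anaphase-promoting complex, was at 12.4, 12.5 and 8.7 FPKM in the vehicle rats and 5.63, 4.96 and 4.86 FPKM in the TRV023 rats, a difference of -1.12 (SE 0.21) and a DESeq2 adjusted p of 0.00178. The 12 core subunits of the complex itself had a median of -0.07, and none was lower or higher at nominal p. These subunits ranged from -0.38 for Cdc27 to 0.25 for Anapc7. Cdc20 lay outside this range, and the grouping of the core subunits was made after the values were seen. Pbk, a mitotic kinase, was at 4.62, 5.92 and 2.75 FPKM in the vehicle rats and 0.514, 1.29 and 1.44 FPKM in the TRV023 rats, a difference of -2.03 (SE 0.45) and a DESeq2 adjusted p of 0.00312. Espl1, the separase that cuts cohesin, differed by -1.06 (SE 0.26), and Cdkn3, a phosphatase of cyclin-dependent kinases, by -0.97 (SE 0.24).

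Arpp19 encodes a small protein that, once phosphorylated by the kinase Mastl, inhibits the phosphatase PP2A so that mitotic substrates stay phosphorylated. The Arpp19 model in the deposited table is 339 bases long and on the minus strand of chromosome 8, at chr8:118444306-118444644. It spans no more than its own length, so it holds no intron. In the rat assembly GRCr8 the Arpp19 promoter lies on the plus strand of chromosome 8. Whether this model stands for the whole Arpp19 gene was not tested. Read counts of the model were 39, 68 and 94 in the vehicle rats and 6, 12 and 10 in the TRV023 rats. The lowest vehicle rat lay above the highest TRV023 rat. The log2 difference was -2.74 (SE 0.48), with an edgeR adjusted p of 0.361 and a DESeq2 adjusted p of 0.00112. Ensa, its close homolog with the same function, was at 46.6, 42.8 and 41.9 FPKM in the vehicle rats and 45.8, 46.6 and 50.4 FPKM in the TRV023 rats, a difference of 0.12 (SE 0.11), and the groups overlapped. Mastl differed by -1.21 (SE 0.44) at an unadjusted edgeR p of 0.0258. Ensa and Mastl were chosen after their values were seen.

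Genes of chromosome condensation and cohesion divided in the same manner. Of 27 members 13 were lower and none higher at nominal p, with a median of -0.41, and 8 were lower without Veh_924. Top2a, the topoisomerase that untangles sister chromatids, was at 10.4, 11.2 and 6.84 FPKM in the vehicle rats and 2.58, 2.8 and 4.64 FPKM in the TRV023 rats, a difference of -1.50 (SE 0.27) and a DESeq2 adjusted p of 0.000121. Esco2, which acetylates cohesin in S phase, was at 3.59, 4.93 and 2.65 FPKM in the vehicle rats and 0.832, 1.05 and 1.18 FPKM in the TRV023 rats, a difference of -1.86 (SE 0.32). Smc2, a core subunit of condensin, was at 5.99, 7.12 and 5.89 FPKM in the vehicle rats and 3.57, 3.85 and 4.13 FPKM in the TRV023 rats, a difference of -0.72 (SE 0.14). All 3 genes were separated between groups and called by DESeq2. Of 8 condensin genes 6 were lower at nominal p, with a median of -0.62, whereas none of 9 genes of the cohesin core and its loaders was, with a median of 0.03. Condensin acts at mitosis, and cohesin is also used by cells that do not divide. Both groupings were made after the values were seen.

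**Figure D2:**
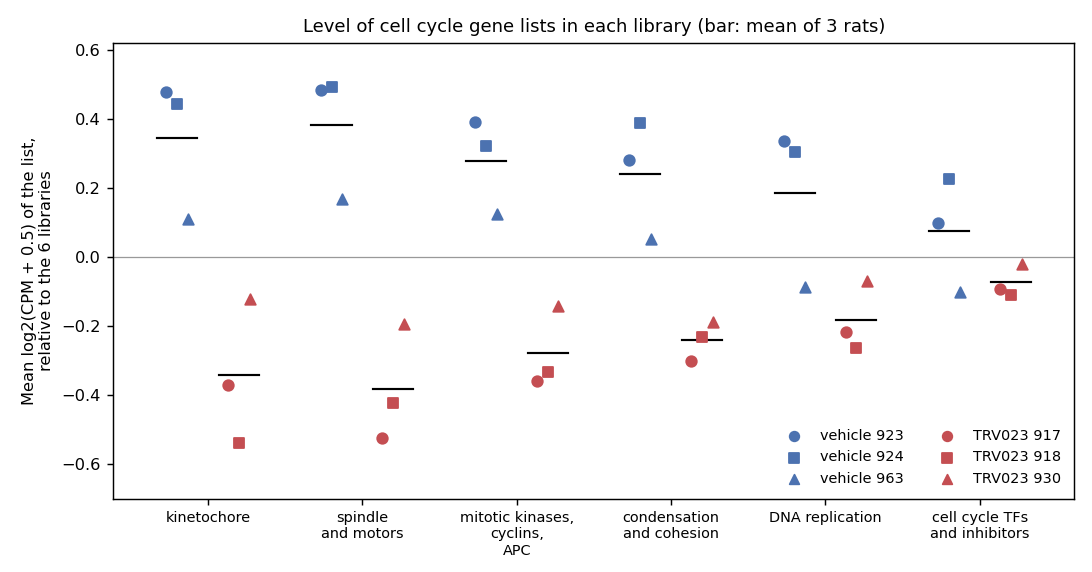
Mean log2(CPM + 0.5) of 6 cell cycle gene lists, with the mean over all 6 libraries set to 0, where CPM is the read count scaled to library size with TMM factors. Each point is a rat, blue for vehicle and red for TRV023, and the bar is the mean of 3 rats. In the 4 mitotic lists all vehicle rats lie above all TRV023 rats, while in DNA replication Veh_963 at -0.09 lies just below Trv_930 at -0.07.

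The rats within a group were not alike in these lists. Over the 161 mitotic genes, Veh_963 was the lowest vehicle rat in 117 genes, and Trv_930 was the highest TRV023 rat in 95. The mean level of the 161 genes relative to the 6 libraries was 0.42, 0.41 and 0.12 in the vehicle rats and -0.40, -0.40 and -0.16 in the TRV023 rats on the log2 scale. The gap between the nearest rats of the 2 groups, Veh_963 and Trv_930, was therefore smaller than the gap between the group means. Leaving out each rat in turn, 66 to 92 genes were lower at nominal p, lowest without Veh_923 and highest without Veh_963, and the median lay between -0.84 and -0.65.

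Genes of DNA replication, which act in S phase before mitosis, were lower by less. Of 59 members 15 were lower (25.4%) and 1 higher at nominal p, with a median of -0.36, and DESeq2 called 2. Of the 6 genes of the replicative helicase, Mcm2 to Mcm7, all but Mcm7 were lower at nominal p, with a median of -0.58. This grouping was made after the values were seen. Mcm5 was at 12.7, 12.4 and 7.76 FPKM in the vehicle rats and 6.33, 5.29 and 5.22 FPKM in the TRV023 rats, a difference of -0.96 (SE 0.22) and a DESeq2 adjusted p of 0.025. Uhrf1, which brings the maintenance methyltransferase to new DNA, was at 5.17, 5.29 and 2.86 FPKM in the vehicle rats and 1.62, 1.98 and 1.63 FPKM in the TRV023 rats, a difference of -1.35 (SE 0.29). Rrm1, the large subunit of ribonucleotide reductase, differed by -0.40 (SE 0.11), with all TRV023 rats below all vehicle rats. The count of lower members was 24 without Veh_963, 8 without Veh_923 and 9 without Veh_924.

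Transcription factors and inhibitors of the cell cycle had a median of -0.08 over 39 members, with 6 lower and 2 higher at nominal p. The lower count was 1 without Veh_924 and 3 without Veh_923 or Trv_917, and the higher count was at most 1 whichever rat was left out. Mybl2, which activates late cell cycle genes, differed by -0.93 (SE 0.26), E2f1, a factor of S phase entry, by -0.53 (SE 0.19), Lin9, part of the MuvB complex, by -1.08 (SE 0.40), and the inhibitor Cdkn2c by -0.78 (SE 0.24). DESeq2 called none of the 39. Cdkn1a, the inhibitor p21, was at 177, 209 and 147 FPKM in the vehicle rats and 208, 169 and 260.3 FPKM in the TRV023 rats, and Ccnd1, the cyclin that carries growth signals, at 118, 181 and 89.9 against 144, 123 and 103 FPKM. These 2 genes, chosen after their values were seen, overlapped between groups, with differences of 0.26 (SE 0.20) and -0.07 (SE 0.26).

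**Figure D3:**
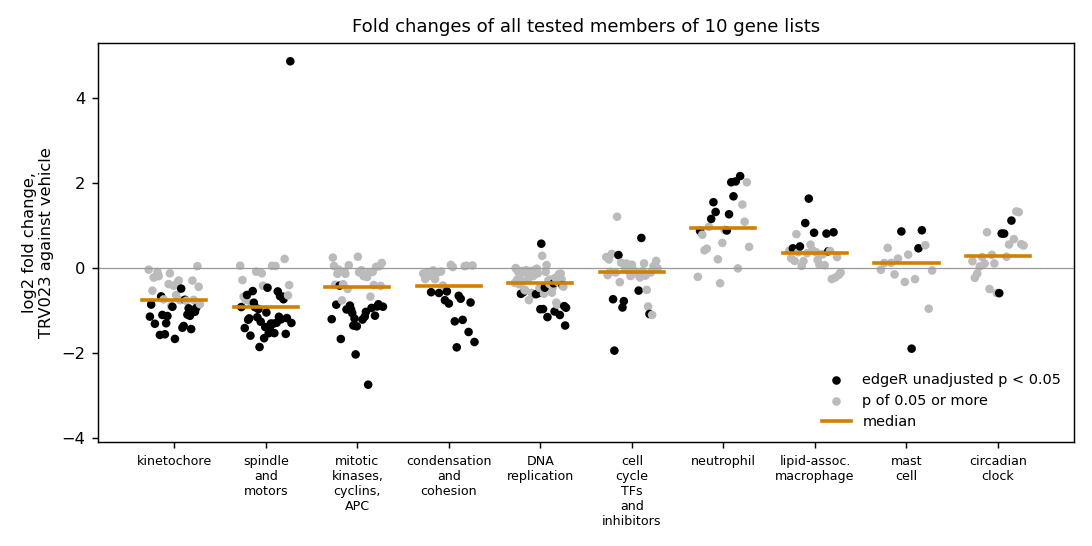
Log2 fold change, TRV023 against vehicle, of every tested member of 10 gene lists. Black points have an unadjusted edgeR p under 0.05, grey points do not, and the orange bar is the median of the list. The medians fall from -0.08 for cell cycle transcription factors and inhibitors through -0.36 for DNA replication to -0.92 for spindle and motors, and the neutrophil median is 0.93. The single point near 5 is the second gene model of Haus1.

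Mitotic promoters are known to carry a shared arrangement of short elements. The cell cycle genes homology region (CHR) is bound by MuvB complexes, the CCAAT box by NF-Y, and E2F sites are typical of S phase genes. The letters searched, on both strands, were TTTGAA and TTCGAA for CHR, CCAAT, and TTTGGCGC and TTTCGCGC for E2F, in the RefSeq promoters of the rat assembly GRCr8, from 250 bases before to 50 after each start. The deposited coordinates are on a build that is not named, so the positions cannot be set beside each other. Of the 161 tested mitotic genes 135 had a promoter in the table. A CHR was found in 78 of them (57.8%), against 13.7% of the promoters of all tested genes and 19.5% of the 27457 promoters of the table. A CCAAT box was found in 61.5%, against 37.3% of tested genes and 37.7% of all promoters, and both elements in 40.0%, against 5.66% and 7.83%. The E2F letters were in 3.7% of mitotic promoters, in 34% of the 50 promoters of replication genes and in 1.41% of those of all tested genes. Of the replication promoters 14% held a CHR. The 78 mitotic genes with a CHR had a median log2 fold change of -0.89, and 52 were lower at nominal p. The 57 without one had a median of -0.40, and 23 were lower. For the CCAAT box the medians were -0.77 over 83 genes with it, 49 of them lower, and -0.65 over 52 without it, 26 of them lower. For E2F they were -0.75 over 5 genes and -0.73 over 130. A match is only a run of letters and was not tested as a binding site. The promoters were taken from the 2 members with the smallest edgeR p in each of the 4 mitotic lists and the replication list, passing over members without a promoter in the table (such as Tpx2 and Esco2), and 7 of the 10 are printed so that the position of the elements can be read. Each line runs 5′ to 3′ on the strand of the gene, with 250 bases before the start of transcription, and capitals mark every match on either strand, so that ATTGG is a CCAAT box and TTCAAA a CHR on the opposite strand.
Prc1: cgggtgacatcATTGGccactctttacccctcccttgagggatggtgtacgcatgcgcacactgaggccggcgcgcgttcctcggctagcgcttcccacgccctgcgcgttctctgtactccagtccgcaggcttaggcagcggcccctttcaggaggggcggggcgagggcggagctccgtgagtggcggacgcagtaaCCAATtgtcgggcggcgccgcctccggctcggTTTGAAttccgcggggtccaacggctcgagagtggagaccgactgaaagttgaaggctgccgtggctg
Anln: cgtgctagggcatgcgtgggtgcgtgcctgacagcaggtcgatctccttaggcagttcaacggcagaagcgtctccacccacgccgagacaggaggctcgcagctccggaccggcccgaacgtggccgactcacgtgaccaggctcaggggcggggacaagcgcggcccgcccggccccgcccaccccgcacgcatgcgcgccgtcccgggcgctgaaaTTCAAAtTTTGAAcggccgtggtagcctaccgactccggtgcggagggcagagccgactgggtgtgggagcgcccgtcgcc
Cdc20: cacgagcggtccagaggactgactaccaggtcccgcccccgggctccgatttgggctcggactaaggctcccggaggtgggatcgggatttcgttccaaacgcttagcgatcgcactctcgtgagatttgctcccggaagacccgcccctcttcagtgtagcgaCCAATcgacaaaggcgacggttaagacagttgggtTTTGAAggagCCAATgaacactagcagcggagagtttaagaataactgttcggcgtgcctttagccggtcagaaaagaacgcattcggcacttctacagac
Ndc80: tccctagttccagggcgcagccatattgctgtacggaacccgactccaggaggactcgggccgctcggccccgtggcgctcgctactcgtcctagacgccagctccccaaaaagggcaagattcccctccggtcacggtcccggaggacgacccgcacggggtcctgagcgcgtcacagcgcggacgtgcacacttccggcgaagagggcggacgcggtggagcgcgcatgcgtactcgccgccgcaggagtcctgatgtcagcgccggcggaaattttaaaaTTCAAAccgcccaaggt
Top2a: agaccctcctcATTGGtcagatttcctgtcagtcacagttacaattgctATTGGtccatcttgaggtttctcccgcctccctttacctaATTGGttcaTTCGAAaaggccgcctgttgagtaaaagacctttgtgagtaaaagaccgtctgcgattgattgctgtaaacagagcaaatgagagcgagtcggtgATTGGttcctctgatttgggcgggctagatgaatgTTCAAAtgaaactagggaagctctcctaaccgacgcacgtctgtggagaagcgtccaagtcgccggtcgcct
Smc2: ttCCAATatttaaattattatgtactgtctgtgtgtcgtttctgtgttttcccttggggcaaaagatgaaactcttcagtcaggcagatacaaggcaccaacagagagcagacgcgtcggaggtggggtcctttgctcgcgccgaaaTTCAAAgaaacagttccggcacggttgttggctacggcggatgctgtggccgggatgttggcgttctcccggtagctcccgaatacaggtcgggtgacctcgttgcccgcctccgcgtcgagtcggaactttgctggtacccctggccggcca
Mcm5: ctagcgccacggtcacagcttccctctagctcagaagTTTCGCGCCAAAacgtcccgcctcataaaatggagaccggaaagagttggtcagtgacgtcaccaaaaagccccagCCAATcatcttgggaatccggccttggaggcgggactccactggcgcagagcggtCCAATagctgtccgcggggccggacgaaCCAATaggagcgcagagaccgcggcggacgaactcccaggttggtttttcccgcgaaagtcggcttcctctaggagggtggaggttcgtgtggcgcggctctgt
The GRCr8 positions are chr1:143659231-143659530 (plus strand) for Prc1, chr8:29197464-29197763 (minus strand) for Anln, chr5:137255750-137256049 (minus strand) for Cdc20, chr9:118887480-118887779 (minus strand) for Ndc80, chr10:84473044-84473343 (minus strand) for Top2a, chr5:71602155-71602454 (plus strand) for Smc2 and chr19:13488563-13488862 (plus strand) for Mcm5. Prc1, Cdc20 and Top2a show a CCAAT box within 50 bases of a CHR, upstream of the start, and in Smc2 both elements lie farther apart. Anln holds a pair of CHR matches on opposite strands and no CCAAT box. In Ndc80 the CHR lies after the start. Mcm5 holds 3 CCAAT boxes, no CHR, and 2 E2F matches that overlap on opposite strands. The Bub1 and Arpp19 promoters held none of these letters, and that of Uhrf1 held a CCAAT box only, and these 3 are not printed. Promoters were matched by symbol alone, so a promoter may not belong to the model that was counted, as for the short Arpp19 model.

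Several of the largest differences belonged to gene models that share their symbol with another model, an observation made after the values were seen. Reads of near-identical copies can be split between such models by the counting, whose rules are not stated, so their values are uncertain. Of the 99 genes with a symbol that DESeq2 called, 7 (7.07%) had a symbol on more than 1 model, against 1.84% of the 14468 such genes it tested. Among the 6 of them that were at least 16-fold apart in edgeR, 4 did. The plot of the paired models sets both models and their sum side by side.

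Pfkfb4, which sets the level of the glycolytic regulator fructose 2,6-bisphosphate, has 2 models on chromosome 8. The model at chr8:117742757-117764587 had read counts of 70, 38 and 114 in the vehicle rats and 3, 2 and 2 in the TRV023 rats, a log2 difference of -4.79 (SE 0.62) with a DESeq2 adjusted p of 1.1e-06. The other model had 128, 21 and 39 counts against 17, 70 and 18, and the groups overlapped. The sum was 198, 59 and 153 against 20, 72 and 20. Wdr62, a spindle pole protein, also has 2 models. The one called by DESeq2 had 42, 16 and 23 counts in the vehicle rats and 1, 3 and 3 in the TRV023 rats, and the other had 44, 14 and 30 against 15, 18 and 15.

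For Epb41l1, a protein of the membrane skeleton, the called model had 2, 5 and 1 counts in the vehicle rats and 33, 105 and 22 in the TRV023 rats, a difference of 4.30 (SE 0.80). The other model held most of the reads, 399, 353 and 334 against 287, 386 and 220, and differed by -0.17 (SE 0.21). The sum of both overlapped between the groups, from 335 to 401 in vehicle and from 242 to 491 with TRV023. Haus1, a subunit of the augmin complex that branches spindle microtubules, had 3, 1 and 0 counts in the vehicle rats and 36, 58 and 25 in the TRV023 rats for the called model, and 0, 43 and 0 against 0, 49 and 3 for the other. The sum was 3, 44 and 0 against 36, 107 and 28, so Veh_924 lay above Trv_917 and Trv_930. The histone gene Hist1h4b has 6 models, of which DESeq2 called 1 with 47, 91 and 51 against 158, 129 and 166 counts, while the sum over the 6 was 1059, 969 and 1335 against 1249, 1678 and 1096. Selenbp1 and Hiat1 each had 1 of 2 models called, and in both the TRV023 rats overlapped the vehicle rats. The called Selenbp1 model had 7, 11 and 29 counts in the vehicle rats and 13, 838 and 884 in the TRV023 rats.

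**Figure D4:**
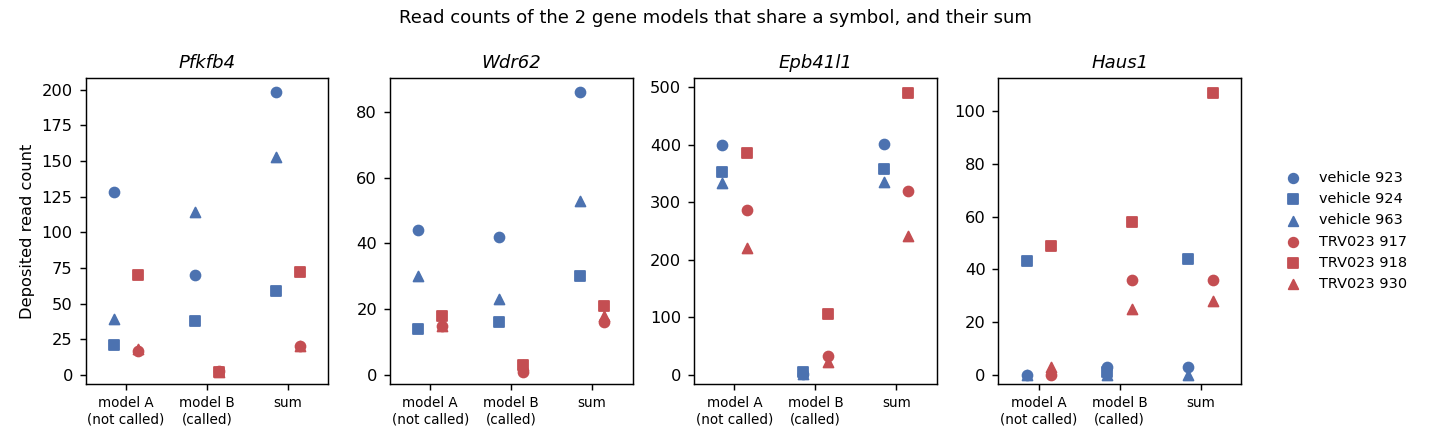
Deposited read counts of the 2 gene models that share the symbols Pfkfb4, Wdr62, Epb41l1 and Haus1, and of their sum, in each rat (blue vehicle, red TRV023). Model B, the one DESeq2 called, separates the groups for all 4 symbols, while the groups overlap in model A. In the sum the groups are separated for Wdr62 but overlap for Pfkfb4, Epb41l1 and Haus1.

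Of the 68 genes that DESeq2 called lower, 33 were on the mitotic and replication lists, and of the 42 it called higher, 1 was. The other lower genes were outside these lists, which do not hold every gene tied to cell division, such as Wdr62. Of the 15193 genes tested by edgeR, 161 were on the mitotic lists and 59 on the replication list. These lists were made with earlier results of these data known. Cxcl14, a chemokine of fibroblasts and epithelium, was at 98.5, 59 and 40.7 FPKM in the vehicle rats and 16, 17.2 and 12.6 FPKM in the TRV023 rats. The TRV023 rats were close together below all vehicle rats, and Veh_923 was highest. The log2 difference was -2.11 (SE 0.30), with an edgeR adjusted p of 0.306 and a DESeq2 adjusted p of 3.88e-09. Without Veh_963 Cxcl14 passed in edgeR as well, with an adjusted p of 0.0496 and a difference of -2.36. Ly6c, a surface protein of monocytes and endothelium whose model lies on the unplaced scaffold AABR06109985.1, was at 49.7, 33.7 and 31.8 FPKM in the vehicle rats and 6.29, 3.19 and 8.94 FPKM in the TRV023 rats, a difference of -2.64 (SE 0.40). Prph, a neuronal intermediate filament, was at 12.6, 15.8 and 6.5 FPKM in the vehicle rats and 2.51, 0.908 and 2.16 FPKM in the TRV023 rats, a difference of -2.64 (SE 0.46), and Fam131a was at 4.38, 1.96 and 1.38 against 0.286, 0.367 and 0.147 FPKM, a difference of -3.24 (SE 0.63). These 3 genes were chosen among separated DESeq2 calls, so neither property adds support. Their DESeq2 adjusted p values were 2.87e-08, 9.62e-07 and 0.00284.

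Cyp4f5, a cytochrome P450 of fatty acid hydroxylation, was at 1, 1.44 and 0.813 against 0.15, 0.211 and 0 FPKM. Ppef2, a protein phosphatase, differed by -1.95 (SE 0.54), Pkhd1l1 by -1.68 (SE 0.39), Fam64a by -2.04 (SE 0.49) and Diaph3, a formin that nucleates actin, by -1.80 (SE 0.41). All 5 genes were likewise chosen because they were separated and called by DESeq2. Their edgeR adjusted p values were at least 0.499.

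Genes of neutrophil granules lay higher in TRV023-treated lungs. Neutrophils store antimicrobial proteins in granules that are filled in order as the cell matures in the marrow. Of 24 tested neutrophil genes 10 were higher (41.7%) and none lower at nominal p, with a median of 0.93, and DESeq2 called 6 higher. Leaving out each rat in turn gave 7 to 10 higher. Camp, the cathelicidin of secondary granules, was at 4.16, 4.58 and 4.22 FPKM in the vehicle rats and 13.7, 15.3 and 12.8 FPKM in the TRV023 rats. The 3 rats of each group were close together, with a wide gap between the groups, a log2 difference of 1.69 (SE 0.26) with an edgeR adjusted p of 0.306 and a DESeq2 adjusted p of 2.15e-05. Ngp, another secondary granule protein, was at 2.69, 7.55 and 5.16 FPKM in the vehicle rats and 34.5, 20.1 and 14.2 FPKM in the TRV023 rats, a difference of 2.16 (SE 0.44). S100a8, the calcium-binding calprotectin chain of the cytosol, was at 44.4, 93.5 and 39.5 FPKM in the vehicle rats and 236, 125 and 156 FPKM in the TRV023 rats, a difference of 1.55 (SE 0.37). Its partner S100a9 was at 88.6, 215 and 97.9 against 443, 221 and 225 FPKM, with Veh_924 just below Trv_918, and DESeq2 did not call it.

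Pglyrp1, which binds bacterial peptidoglycan, differed by 1.32 (SE 0.29) and the surface glycoprotein Cd177 by 2.04 (SE 0.63). Haptoglobin (Hp), which binds free hemoglobin, differed by 0.88 (SE 0.18). All 3 were separated and called by DESeq2, which for Pglyrp1 and Cd177 was also a rule of their choice. The enzymes of primary granules were low in all rats. Ctsg, a protease, was at 0.598, 0.361 and 1.04 FPKM in the vehicle rats and 0.679, 2.47 and 5.03 FPKM in the TRV023 rats, a difference of 2.02 (SE 0.74), with Trv_917 within the vehicle range and no DESeq2 call. Elane was at 0.0554, 0.172 and 1.32 against 0.892, 2.2 and 3.3 FPKM and Mpo at 1.34, 0.941 and 2.57 against 0.141, 2.74 and 5.53 FPKM, and both overlapped between groups. Ltf, lactoferrin of secondary granules, was at 0.0386 FPKM or less in every rat and was not tested. The receptors of mature neutrophils, Cxcr2 and Csf3r, differed by 0.59 (SE 0.34) and 0.42 (SE 0.36), with unadjusted edgeR p values of 0.118 and 0.284. The mean level of the 24 genes relative to the 6 libraries was -0.50, -0.31 and -0.40 in the vehicle rats and 0.33, 0.32 and 0.57 in the TRV023 rats on the log2 scale. The mitotic genes were lower in the same rats, and a link between these levels was not tested.

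Of 9 tested genes of the acute phase response, whose proteins the liver and inflamed tissue release, 3 were higher and none lower at nominal p. The median was 0.29 and the lowest value -0.77, for the fibrinogen chain Fgg. The grouping was made after the values were seen. Orm1, an orosomucoid, was at 2.06, 2.34 and 1.09 FPKM in the vehicle rats and 13.8, 3.01 and 16.2 FPKM in the TRV023 rats, a difference of 2.60 (SE 0.64) and a DESeq2 adjusted p of 0.00312. Trv_917 and Trv_930 were far above Trv_918, which lay close to Veh_924. Serpina3n, a protease inhibitor, was at 40.4, 30.5 and 22.5 FPKM in the vehicle rats and 156, 53.8 and 120.4 FPKM in the TRV023 rats, a difference of 1.84 (SE 0.39), and Trv_918 was again the lowest TRV023 rat. Lcn2, which belongs to the neutrophil list and to this response, overlapped at 2499, 1297 and 415 against 1105, 752 and 1413 FPKM.

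**Figure D5:**
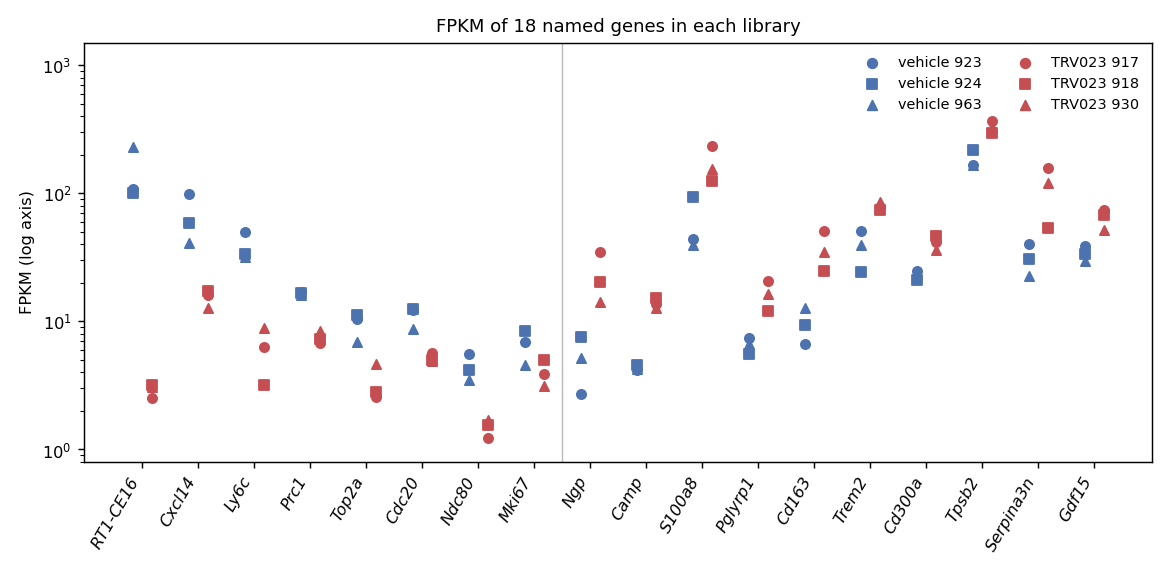
FPKM on a log axis of 18 named genes in each rat (blue vehicle, red TRV023). Of the 8 genes left of the line, 7 have all TRV023 rats below all vehicle rats and Mki67 overlaps. The 10 genes right of the line have all TRV023 rats above all vehicle rats, with Camp between 4.16 and 4.58 in vehicle and between 12.8 and 15.3 with TRV023.

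Some genes of lipid-laden macrophages lay higher. This state, marked by the lipid receptor Trem2, appears where macrophages clear debris. Of 30 members 8 were higher (26.7%) and none lower at nominal p, with a median of 0.36. Trem2 was at 50.6, 24.5 and 39.4 FPKM in the vehicle rats and 78.8, 73.7 and 86 FPKM in the TRV023 rats, a difference of 1.06 (SE 0.24), and Cd300a, an inhibitory receptor for phosphatidylserine, at 24.7, 21.1 and 23.5 FPKM in the vehicle rats and 41.7, 46.8 and 36 FPKM in the TRV023 rats, a difference of 0.84 (SE 0.13). Both were separated and called by DESeq2, at 0.0071 and 0.000861. The protease Ctsk differed by 0.81 (SE 0.26) and the lipid carrier Apoe by 0.83 (SE 0.31), whereas Tyrobp, the signaling partner of Trem2, differed by 0.07 (SE 0.16) and Spp1, osteopontin, by -0.16 (SE 0.14). Without Veh_924, the lowest vehicle rat for Trem2, 3 members were higher, and 5 were without Veh_963, Trv_917 or Trv_918. Cd163, the scavenger receptor for hemoglobin with haptoglobin, was at 6.61, 9.36 and 12.7 FPKM in the vehicle rats and 50.9, 24.7 and 34.6 FPKM in the TRV023 rats, a difference of 1.95 (SE 0.33) and a DESeq2 adjusted p of 3.32e-07. The alveolar macrophage list to which it belongs had a median of 0.15 over 15 genes, which was -0.08 without Trv_918, with Mrc1 at 90.4, 61.9 and 69.2 against 93, 85.1 and 92.7 FPKM and overlapping. Hmox1, which degrades heme, was at 324, 229 and 129 FPKM in the vehicle rats and 1395, 156 and 529.8 FPKM in the TRV023 rats, and Trv_917 was far above the other rats while Trv_918 lay within the vehicle range.

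Mast cell genes went both ways. Of 16 tested members 3 were higher and 1 lower at nominal p, with a median of 0.12. Without Veh_924 7 were higher, and without Veh_923 2 were lower. The tryptases, proteases of connective tissue mast cells, lay higher: Tpsab1 was at 145, 186 and 142 FPKM in the vehicle rats and 251, 319.9 and 309 FPKM in the TRV023 rats, a difference of 0.89 (SE 0.16). Tpsb2 differed by 0.86 (SE 0.17), and DESeq2 called both. Mcpt2, a chymase of mucosal mast cells, lay lower with 166, 177 and 60.5 FPKM in the vehicle rats and 14.2, 39.8 and 54.6 FPKM in the TRV023 rats, a difference of -1.89 (SE 0.52), and DESeq2 did not call it (adjusted p = 0.276). A second Mcpt2 model had at most 1 read in any rat. Ms4a2, a chain of the IgE receptor present on both kinds of mast cell, differed by 0.47 (SE 0.15). All 4 genes were separated between groups.

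No difference in the receptor of the drug or in the β-arrestins was detected beyond the spread between rats. Agtr1a, the main AT1R gene of the rat lung, was at 31.1, 34.7 and 35.1 FPKM in the vehicle rats and 35.1, 26.1 and 30.6 FPKM in the TRV023 rats, and the groups overlapped. The log2 difference was -0.13 (SE 0.15), with a 95% interval of -0.48 to 0.21. Agtr1b had at most 11 reads in any rat and was not tested, and Agtr2, the type 2 receptor, was at 0.274 FPKM or less in every rat. The β-arrestins Arrb1 and Arrb2 differed by -0.17 (SE 0.22) and 0.05 (SE 0.15), with 95% intervals of -0.68 to 0.34 and -0.30 to 0.41. Over the 25 tested genes of angiotensin receptors and transducers the median was -0.02, and 1 gene was lower and 1 higher at nominal p. These were Plcb1, the phospholipase downstream of Gq, at 3.63, 3.58 and 2.31 FPKM in the vehicle rats and 1.74, 1.52 and 1.7 FPKM in the TRV023 rats, and Rgs2, which switches Gq off, at 55.6, 87.2 and 46.9 FPKM in the vehicle rats and 103, 98.7 and 106 FPKM in the TRV023 rats. The differences were -0.94 (SE 0.27) and 0.70 (SE 0.22), separated in both genes, and DESeq2 called neither.

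ERK feedback and immediate early genes, which record recent receptor signaling, had a median of 0.16 over 35 members, with 5 higher (14.3%) and 1 lower (2.86%) at nominal p. The higher count was 12 without Trv_930, 3 without Trv_918, and 2 without Veh_923 or Trv_917. Spry2, an inhibitor of the ERK pathway, was at 27.5, 23.8 and 24.6 FPKM in the vehicle rats and 39.2, 34.7 and 35.1 FPKM in the TRV023 rats, a difference of 0.52 (SE 0.12) and separated. Klf2, a factor that endothelium makes under flow, was also separated and differed by 0.70 (SE 0.22). Fos was at 16.5, 22.8 and 30.1 against 73.2, 123 and 16.9 FPKM, and Trv_930 lay within the vehicle range. DESeq2 called none of the 35.

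Genes of pulmonary hypertension signaling had a median of 0.04 over 47 members, with 7 higher (14.9%) and 1 lower (2.13%) at nominal p, and DESeq2 called none. Leaving out any 1 of the 6 rats lowered the higher count to between 2 and 5, fewest without Trv_917, and 3 were lower without Veh_923 or Trv_918. The lower gene, Slc6a4, is the serotonin transporter and was at 9.37, 14.1 and 11.1 FPKM in the vehicle rats and 6.7, 7.03 and 7.06 FPKM in the TRV023 rats, a difference of -0.73 (SE 0.17) and separated. Bmp2, a ligand of the BMP receptors, differed by 0.57 (SE 0.19), the BMP inhibitor Smad6, which overlapped between groups, by 0.51 (SE 0.18) and the serotonin receptor Htr2b by 0.79 (SE 0.28). Among 25 endothelial genes the median was -0.05. Vwf, the clotting factor stored by endothelium, was at 84.3, 117 and 80.7 against 179.9, 118 and 129 FPKM, Nos3, the endothelial nitric oxide synthase, differed by 0.45 (SE 0.16), and Cdh5, the cadherin of endothelial junctions, differed by -0.39 (SE 0.14). Gdf15, a stress-induced cytokine, was at 39, 33.5 and 29.9 FPKM in the vehicle rats and 74, 67.2 and 51.3 FPKM in the TRV023 rats, a difference of 0.91 (SE 0.17), separated and called by DESeq2 at 0.00321.

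Smooth muscle contractile genes had a median of -0.40 over 21 members. Veh_963, the library with the high muscle genes, set much of this median, which was 0.13 without it. Over 44 matrix genes the median was -0.02. Fbln1, a fibulin of elastic fibers, was at 99.2, 106 and 112 FPKM in the vehicle rats and 58.5, 82.2 and 58.8 FPKM in the TRV023 rats, a difference of -0.67 (SE 0.15), separated and called by DESeq2 at 0.0158. Mmp2 was at 246, 272 and 255 against 378, 266 and 353 FPKM and its inhibitor Timp1 at 375, 345 and 169 against 436, 159 and 279.9 FPKM, both overlapping. Mmp9, a protease of neutrophil granules and macrophages, was at 1.33, 1.79 and 2.22 FPKM in the vehicle rats and 6.55, 2.57 and 3.66 FPKM in the TRV023 rats, a difference of 1.27 (SE 0.39), separated and not called by DESeq2.

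Epithelial lists held a few separated genes on either side. Of 13 alveolar type 2 genes 1 was lower and 1 higher at nominal p, with 5 lower without Veh_924 and 3 without Trv_918, and none higher without Veh_924 or Veh_963. Lamp3, of the lamellar body, was at 205, 129.9 and 153 FPKM in the vehicle rats and 102, 120.0 and 76.8 FPKM in the TRV023 rats, and Nkx2-1, the factor that defines lung epithelium, at 101, 71 and 69.3 FPKM in the vehicle rats and 114, 114 and 109.6 FPKM in the TRV023 rats, so the structural gene lay lower and the identity factor higher. Hopx, of alveolar type 1 cells, was at 792, 669 and 777 FPKM in the vehicle rats and 1039.7, 1038 and 944 FPKM in the TRV023 rats. None of these 3 was called by DESeq2. Mesothelial genes had 3 of 14 members lower at nominal p, which became 7 without Veh_963 or Trv_917, 0 without Veh_923 and 1 without any other rat. Upk1b was at 10.3, 11.1 and 3.06 FPKM in the vehicle rats and 4.69, 0.982 and 0.511 FPKM in the TRV023 rats, and Lrrn4 at 4.29, 5.43 and 1.2 against 1.83, 0.383 and 0.41 FPKM. Both overlapped, with Veh_963 below Trv_917 in each.

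The circadian clock is a loop of transcription factors that runs in most cells of the lung. Of its 22 tested genes 3 were higher and 1 lower at nominal p, with a median of 0.29, and DESeq2 called none. Dbp, an output factor of the clock, was at 6.24, 6.77 and 15 FPKM in the vehicle rats and 18.4, 24.4 and 18.4 FPKM in the TRV023 rats, a difference of 1.12 (SE 0.33), and Arntl, which activates the clock's repressors and peaks at the opposite time, at 12.7, 12.3 and 12.7 FPKM in the vehicle rats and 7.16, 6.86 and 11 FPKM in the TRV023 rats, a difference of -0.59 (SE 0.20). Both were separated. Tef, which binds the same sites as Dbp, differed by 0.81 (SE 0.29), and the clock repressor Per3 by 0.81 (SE 0.34), where Veh_963 lay within the TRV023 range. Veh_963 was nearest to the TRV023 rats in Dbp, and without it 7 members were higher and the median was 0.57, while 1 was higher without Veh_924. The hour at which each lung was taken is not stated.

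Of 43 tested chemokines and cytokines 6 were lower and 1 higher at nominal p, with a median of -0.14. The lower count was 3 without Veh_924 and 9 without Veh_963, and the median was 0.12 without Veh_924. Besides Cxcl14, the lower ones included Tnf, the cytokine of activated macrophages, at 6.8, 6.92 and 1.87 FPKM in the vehicle rats and 2.03, 1.6 and 2.32 FPKM in the TRV023 rats, where Veh_963 lay within the TRV023 range, and the interferon-induced chemokine Cxcl9, which was separated and differed by -0.99 (SE 0.25). The higher one was Cxcl2, a chemoattractant of neutrophils, at 1.95, 2.16 and 2.07 FPKM in the vehicle rats and 13.4, 3.2 and 4.2 FPKM in the TRV023 rats, a difference of 1.76 (SE 0.56). DESeq2 called none of these 3 genes. The lists of T and NK cells, ciliated cells, club cells, heat shock proteins and cholesterol synthesis had no member lower or higher at nominal p, out of 29, 29, 15, 31 and 29 tested, and DESeq2 and edgeR called none of them at an adjusted p under 0.05. Leaving out 1 rat changed this: without Veh_963 8 club cell genes and 5 ciliated cell genes were higher and 6 cholesterol genes lower at nominal p, with medians of 0.87 for club and 0.77 for ciliated cells, and without Trv_930 4 T and NK cell genes were lower. Heat shock genes had at most 1 in either direction.

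Single higher genes outside the lists were chosen by the size of their change among DESeq2 calls. They also had to be separated, with a mean of at least 1 FPKM in a group. Lrrc23, a protein of the ciliary radial spoke, was at 0.372, 0.105 and 0.404 FPKM in the vehicle rats and 2.48, 10.4 and 4.68 FPKM in the TRV023 rats, a difference of 4.27 (SE 0.67) and a DESeq2 adjusted p of 1.06e-08. Rgs1, which switches off Gi and Gq signaling in leukocytes, was at 13.1, 14.7 and 28 FPKM in the vehicle rats and 69.8, 63 and 28.2 FPKM in the TRV023 rats, a difference of 1.52 (SE 0.39). Both were separated, as the choice required, and for Rgs1 only just, with Veh_963 and Trv_930 nearly equal. Pf4, a chemokine of platelet granules, was instead named as the member of the platelet list with the smallest edgeR p. It was at 158, 174 and 161 FPKM in the vehicle rats and 389, 251 and 245 FPKM in the TRV023 rats, a difference of 0.85 (SE 0.20). The 16 platelet genes had a median of -0.19, or 0.27 without Veh_924.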

How the data were processed

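Bulk RNA sequencing of small pieces of lung tissue was deposited as 1 table per drug against vehicle, with raw read counts per gene and FPKM made by the authors. Deposited FPKM values are counts scaled to gene length and library size. A further set of deposited columns, counts scaled between libraries, and the authors' fold changes and p-values were not used. Aligner, counter, strand setting, genome build and annotation: not given in the sources used here. Some models lie on scaffolds named AABR06. The 3 vehicle and 3 TRV023 libraries were fitted with edgeR 4.0.16 (R 4.3.3; TMM scaling, filterByExpr, quasi-likelihood test, two-sided, Benjamini-Hochberg adjustment over all genes tested), without covariates. Depth was 16106337 to 20096877 counts. DESeq2 1.42.0, limma 3.58.1 with voom or with log2(FPKM + 1), other filters and scalings, a joint fit of all 12 libraries and leaving out each rat were alternatives. The labels do not say whether tissue pieces were prepared together, so a difference in preparation between the groups cannot be told apart from the drug. The p-values measure the spread between libraries, each from a different rat. What is called spread between rats here therefore also holds differences of tissue piece and preparation.

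Named genes were those of interest to the study's design (Agtr1a, Agtr1b, Agtr2, Arrb1, Arrb2, Mki67, Top2a, Trem2, Gdf15, Cxcl14, Arpp19, Mmp2 and Timp1), the genes called by edgeR, the 15 higher and 15 lower DESeq2 calls with the largest separated change and a mean of at least 1 FPKM in a group, and up to 8 members of each mitotic list and 4 of each other list with the smallest edgeR p. The members and lists were chosen with earlier results of these data known. Ccnd1, Cdkn1a, Csf3r, Cxcr2, Elane, Ensa, Lcn2, Ltf, Mastl, Mpo, S100a9, Scgb1a1, Sftpb, Spp1, Tyrobp and the named subunits Cdc27, Anapc7 and Mcm7 were chosen after their values were seen. One result on a single gene is not reported here. The level of a list was the mean log2(CPM + 0.5) of its members. Promoters were matched by symbol and searched with Python 3.11.15, and figures were drawn with matplotlib 3.10.9. In simulated data made from these libraries (14981 genes), edgeR recovered 30.6% of genes changed 2-fold, 84% changed 4-fold and 93.5% changed 8-fold, and DESeq2 recovered 59.2%, 90% and 93.5%, with 6 and 29 false calls among 14787 unchanged genes.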

Additional observations from a re-analysis of the deposited data

How the results depend on the processing

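RT1-CE16 was lower under every alternative, but its edgeR call was lost with limma-voom (adjusted p = 0.166), in the joint fit of all 12 libraries (0.783), and without Trv_917 (0.0703) or Trv_918 (0.112). Against 1 gene called by edgeR, lower, and 0 higher, DESeq2 called 110 (68 lower and 42 higher), limma-voom 0, the joint fit of 12 libraries 0, and leaving out each rat in turn 0 to 3 in all, 0 to 3 lower and 0 to 1 higher. With DESeq2, leaving out each rat gave 36 to 125 lower and 23 to 129 higher genes. The 396 genes higher at an unadjusted edgeR p under 0.05 became 321 to 689 when a rat was left out. Without Veh_963 edgeR also called Cxcl14 lower and Scgb3a1 higher by 3.38 on the log2 scale, each at an adjusted p of 0.0496. Nupr1, a stress-induced factor at 139.7 FPKM in Veh_963 and 2.02 to 4.30 in the other 5 rats, went from -3.86 to 0.32 without that rat, with -4.41 the lowest value on leaving out any rat. Timp1, Arrb2, Casq2 and some list medians also changed sign when 1 rat was left out. Over 40 list medians recomputed under 8 alternatives, 306 values kept within the spread between rats and 14 moved. No paired analysis was possible because the groups share no replicate number. With 3 rats a group, differences near 2-fold were often missed in simulated data, so a gene that was not called is not shown to be equal.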

Other observations

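The MCT rats given AngII (Ang2_922, Ang2_931 and Ang2_933) and losartan (Los_925, Los_964 and Los_965) were compared by the study with the same 3 vehicle rats, so their values stand beside those of TRV023 and are not independent of them. No group but vehicle held 3 rats with high RT1-CE16: the AngII rats were at 3.44, 2.13 and 3.89 FPKM and the losartan rats at 3.76, 198 and 3.73 FPKM, against 108, 100.2 and 229.5 FPKM in vehicle. The Arpp19 model likewise lay at 1.57, 1.89 and 0.684 FPKM with AngII and 1.34, 2.57 and 1.21 FPKM with losartan, below all vehicle rats. The low level of the Arpp19 model was thus seen in all rats given TRV023, AngII or losartan, and that of RT1-CE16 in all of them but Los_964.

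Los_964 differed from the other losartan rats in the direction of the TRV023 rats for both mitotic and neutrophil genes. The mean log2 level of the 161 mitotic genes relative to the vehicle mean was -0.57 in Los_964 and -0.13 and 0.07 in Los_925 and Los_965. In the TRV023 rats it was -0.71, -0.71 and -0.47, and in the AngII rats -0.26, -0.36 and -0.05. The level of the 24 neutrophil genes was 0.83 in Los_964, 0.25 and -0.65 in the other losartan rats, 0.74, 0.73 and 0.98 with TRV023, and 0.51, 0.59 and 0.67 with AngII. In Los_964 Ngp was at 50.1 FPKM, Camp at 16.7 FPKM, S100a8 at 216 FPKM and Orm1 at 31.7 FPKM, each near or above the highest TRV023 rat, and Top2a was at 2.96 FPKM, within the TRV023 range. Whether the 2 levels are linked was not tested. Los_964 was also the losartan rat with high RT1-CE16. These rats were set side by side after their values were seen.

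Some gene models differed widely between single rats of the AngII and losartan groups. The called Pfkfb4 model was at 4.18 FPKM in Ang2_922 and 4.15 FPKM in Los_925 and at 0.0747 to 0.298 FPKM in the other 4 rats of those groups. The called Epb41l1 model was at 2.64 and 0.954 FPKM in the same 2 rats and at 0.0214 to 0.0701 FPKM in the other 4. The called Haus1 model was at 2.19 and 1.87 FPKM in Los_964 and Los_965 and at 0.44 FPKM or less in the others. Lrrc23, at 2.48, 10.4 and 4.68 FPKM with TRV023, was at 0.416 FPKM or less in the 6 AngII and losartan rats.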
